A study of Mus musculus with 216 samples.

Results

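Long H3K9me3 domains that lie outside every annotated gene were taken from the table in which the authors gave each domain of mouse embryonic stem cells a decay class. A domain was counted when it was over 12 kb wide, overlapped no GENCODE vM21 gene of any type, and lay on chromosomes 1 to 7, 9, 10 or 12 to 19. The rule used position and width only, not the decay class. It gave 677 domains of the 43039 in the table, and of the 34389 on those 17 autosomes. They covered 11.01 Mb and were 56.4% of the 1200 domains over 12 kb there.

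H3K9me3 was followed by ChIP-seq, the sequencing of DNA bound to an antibody, in ES cells of the line dTKO, whose genotype is Suv39h1fl/fl; Suv39h2-/-; Setdb1fl/fl. All samples, the 0 h ones included, carry that genotype and the treatment label auxin plus dTAG13, a pair of small molecules used to degrade tagged proteins, given at 100 µg/ml and 0.5 µM. The H3K9me3 immunoprecipitations are 54 of 216 samples, with 9 sequencing runs at each of 0, 1, 3, 12, 24 and 48 h, from 3 biological repeats whose libraries were each run 3 times. The table has 1 class per domain (fast, intermediate, slow or residual) and 0 columns of sample values, so no level per sample, no replicate error between cultures and no depth can be given. The sources used here do not give which proteins carry the tags, whether the line is 1 clone, or where the limits between classes lie. A table of regions also has no marker genes by which the cell type could be checked.

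H3K9me3 is the trimethyl mark of closed chromatin. Setdb1 is known for placing it on endogenous retroviruses, often guided there by KRAB zinc finger proteins and Trim28, while Suv39h1 and Suv39h2 are known mainly for satellite repeats and for retrotransposons. HP1 proteins bind the mark and can recruit the enzymes that write it. Endogenous retroviruses are old viral insertions flanked by long terminal repeats, and full-length ones start reverse transcription from a tRNA held at a primer binding site.

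Because most of these domains are repeat sequence, the stretches that many of them share are shown first. Every 31-base word of the 677 domains was listed, and the most widely shared words were printed, 1 from each group of words that occur together, without use of the decay class. Capitals mark CpG, the site of DNA methylation in mammals. The copies printed are at chr6:146694168-146694198, chr7:31222161-31222191, chr7:31226723-31226753, chr6:47738154-47738184, chr6:146693071-146693101 and chr7:31222507-31222537 of GRCm38.p6, on the plus strand, in the order below.
Shared sequence 1: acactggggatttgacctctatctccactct
Shared sequence 2: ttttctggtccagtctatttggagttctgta
Shared sequence 3: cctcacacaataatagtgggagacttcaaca
Shared sequence 4: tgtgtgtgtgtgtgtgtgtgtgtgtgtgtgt
Shared sequence 5: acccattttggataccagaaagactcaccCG
Shared sequence 6: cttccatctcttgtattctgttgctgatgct

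Shared sequence 1 was in 313 of the 677 domains (46.2%), and in 46.3% of domains over 12 kb that overlap a gene. It was in 30.7% of intergenic domains of 6.3 to 12 kb and in 6.37% of all domains on the 17 autosomes. Within the 677 domains, 7374 words were in at least 100 domains. Of 6330734 distinct words in these domains, 674637 (10.7%) were in 2 or more. Shared sequences 1 and 5 travelled together, since 160 of the 172 domains with sequence 5 (93.0%) also held sequence 1, which is 51.1% of the domains with sequence 1. Shared sequences 2, 3 and 6 formed another set, with 121 of the 171 domains holding sequence 6 (70.8%) also holding sequence 2, or 54.8% of those with sequence 2. Sequence 4 is a run of TG repeats, matched at 936051 start positions on the 17 autosomes, 1.58% of them in H3K9me3 domains. A long run is matched at several overlapping positions, so these are not separate copies. At least 1 of the 6 was found in 551 domains (81.4%). Reads from such copies can be placed on several of them, so domains that share a sequence are not independent of each other.

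The centre of the longest domain of each class is shown as an example of what the classes hold, again with CpG in capitals. The slow one is at chr7:31232551-31232850, the intermediate one at chr3:90991501-90991800 and the residual one at chr6:47757451-47757750 (GRCm38.p6, plus strand, 300 bases each).
Slow domain centre: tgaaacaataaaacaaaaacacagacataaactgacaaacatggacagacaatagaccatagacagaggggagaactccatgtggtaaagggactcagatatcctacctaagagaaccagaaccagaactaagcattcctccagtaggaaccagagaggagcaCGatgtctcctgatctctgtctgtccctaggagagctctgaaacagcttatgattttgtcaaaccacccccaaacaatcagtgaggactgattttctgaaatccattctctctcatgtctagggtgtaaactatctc
Intermediate domain centre: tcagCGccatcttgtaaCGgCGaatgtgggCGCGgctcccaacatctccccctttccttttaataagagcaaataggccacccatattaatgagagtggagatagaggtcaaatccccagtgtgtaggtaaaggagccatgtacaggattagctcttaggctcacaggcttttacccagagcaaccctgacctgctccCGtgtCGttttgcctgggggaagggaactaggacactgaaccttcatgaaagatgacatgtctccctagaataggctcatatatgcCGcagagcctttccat
Residual domain centre: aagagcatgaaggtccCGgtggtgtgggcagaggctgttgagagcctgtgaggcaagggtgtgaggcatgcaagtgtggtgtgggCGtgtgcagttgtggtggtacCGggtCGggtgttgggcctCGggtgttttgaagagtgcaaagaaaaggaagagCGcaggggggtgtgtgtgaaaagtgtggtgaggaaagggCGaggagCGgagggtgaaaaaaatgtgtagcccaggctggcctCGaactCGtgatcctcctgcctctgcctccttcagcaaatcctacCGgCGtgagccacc

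These examples have 1 CpG in the slow, 8 in the intermediate and 12 in the residual stretch, at a GC content of 43.0, 50.0 and 58.7%. The intermediate stretch holds the reverse complement of shared sequence 1. A single stretch does not stand for its class, as the values over all members below show.

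Slow decay was the commonest class of long intergenic domains. Of the 677, 378 were slow (55.8%), 292 intermediate (43.1%) and 7 residual (1.03%), and 0 were fast. Among all 34389 domains on the same chromosomes 18.1% were slow, 76.7% intermediate, 2.25% residual and 2.93% fast. Weighted by length, slow domains made up 56.2% of the 11.01 Mb, intermediate ones 42.2% and residual ones 1.57%. The 523 domains over 12 kb that overlap a gene were 56.8% slow and 37.5% intermediate, with 29 residual (5.54%) and 1 fast. The 2880 intergenic domains of 6.3 to 12 kb were 44.5% slow and 53.7% intermediate, with 33 fast.

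**Figure D1:**
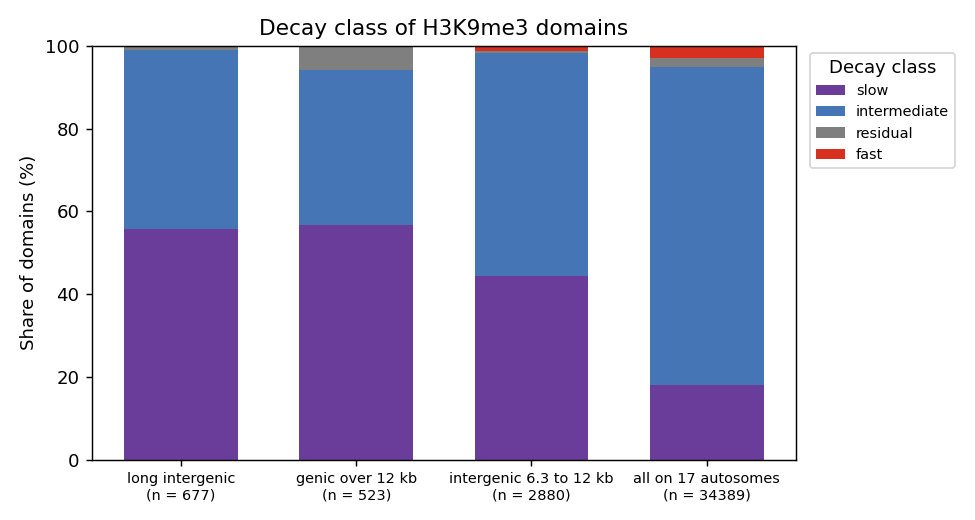
Share of each decay class (vertical axis, % of domains) in 4 sets of H3K9me3 domains on 17 autosomes, with the number of domains under each bar. Slow domains are 55.8% of the long intergenic set and 18.1% of all domains.

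The slow share was compared chromosome by chromosome, which is the spread available here in place of replicate cultures. Over 17 chromosomes it averaged 56.5 ± 9.44% (SD) in long intergenic domains and 45.4 ± 5.43% in intergenic domains of 6.3 to 12 kb. The difference was 11.06 ± 8.48 percentage points, with long domains higher on 15 of 17 chromosomes (adjusted p = 0.0007935 over 4 tests, two-sided exact sign-flip permutation test, whose smallest p is 1.526e-05). The intermediate share differed by -10.4 ± 8.67 points and was lower on 15 of 17 (adjusted exact permutation p = 0.001007). The comparison set is mixed, with 37.8% slow between 6.3 and 9 kb and 58.0% between 9.3 and 12 kb, beside 55.8% of the long domains. The difference thus does not mark a step at 12 kb. When same-class domains less than 5 kb apart were first joined, 977 intergenic domains passed 12 kb, 42.5% of them slow, and the slow difference was 3.54 points (adjusted exact permutation p = 0.1606). That ends the call, as it does for the intermediate share, whose difference became -3.59 points (adjusted exact permutation p = 0.1606).

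Against long domains on genes, the slow share did not pass the test. It was 57.1 ± 10.7% on genes, a difference of -0.576 ± 10.97 points, with 6 chromosomes higher and 11 lower in the intergenic set (adjusted exact permutation p = 0.8284). The intermediate share was 3.94 ± 12.1 points above that of genic domains (adjusted exact permutation p = 0.2579). When only protein-coding genes counted as genes, the differences were -8.78 points for slow and 14.1 points for intermediate, and both passed (adjusted exact permutation p = 0.01962 and 0.003174).

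**Figure D2:**
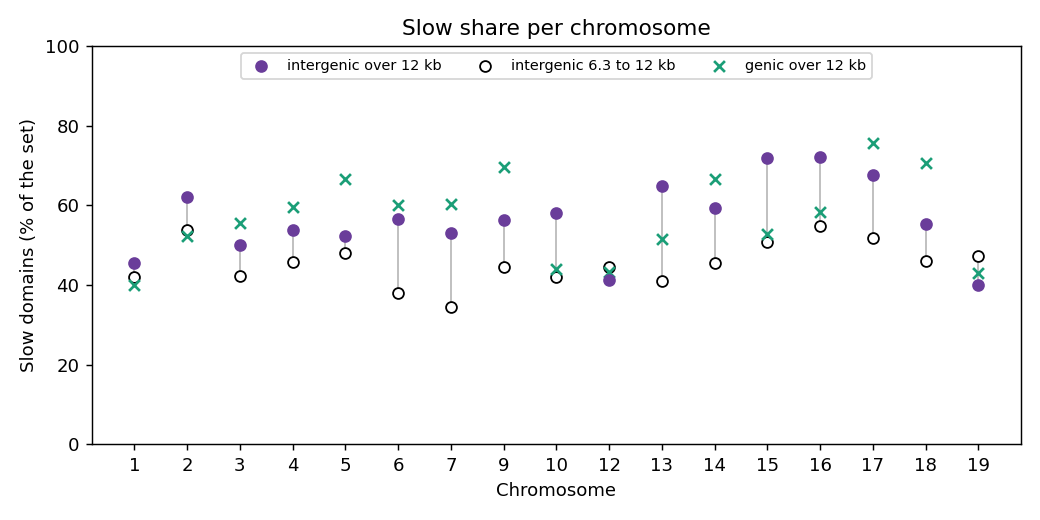
Slow share (vertical axis, % of the set) on each of 17 chromosomes (horizontal axis) for long intergenic domains (filled circles), intergenic domains of 6.3 to 12 kb (open circles, joined to them by a line) and genic domains over 12 kb (crosses). Filled circles lie above open ones on 15 chromosomes, and lie on both sides of the crosses.

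Chromosome 16 had the highest slow share, 26 of 36 domains (72.2%), followed by chromosome 15 with 23 of 32 (71.9%). Chromosome 19 had the lowest, 4 of 10, and chromosome 12 had 19 of 46 (41.3%). Chromosomes 12 and 19 were the pair where long intergenic domains were less often slow than those of 6.3 to 12 kb. Chromosome 7 held the most long intergenic domains, 83 or 57.1 per 100 Mb, against 15.9 per 100 Mb on chromosome 2.

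The slow share of intergenic domains varied more below the 12 kb limit than above it. It was 7.26% for widths to 1.5 kb, 18.4% between 3.3 and 6 kb, 37.8% between 6.3 and 9 kb and 58.0% between 9.3 and 12 kb. Past the limit it was 54.2% between 12.3 and 15 kb (199 of 367), 56.8% between 15.3 and 18 kb, 57.7% between 18.3 and 24 kb and 61.4% among the 44 domains over 24 kb, from below to above the share of the bin just under the limit. These shares were not tested against each other. Just inside the limit, 29 of 41 domains of 12.3 kb were slow (70.7%), and just outside it 34 of 57 domains of 12.0 kb were (59.6%). The 3 narrowest members were slow domains at chr1:112590001-112602300 and chr1:149577901-149590200 and an intermediate one at chr10:33684901-33697200. The widest outside were a slow domain 0.976 kb from Plekhm3, an intermediate one 26.3 kb from Serpinb3b, a serpin gene, and a slow one 123 kb from Rgs21. Members ran from 12.3 to 43.8 kb with a median of 15.0 kb, and the medians of slow and intermediate ones were 15.0 and 14.7 kb. Width was used to choose the members, so these are descriptions.

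Shared sequence 1 was far more frequent in slow than in intermediate members. It was in 270 of 378 slow (71.4%), 43 of 292 intermediate (14.7%) and 0 of 7 residual domains. Turned around, 86.3% of the 313 members with it were slow, against 29.7% of the 364 without it. In the 16 chromosomes with at least 5 members of both kinds, the slow share was higher with it on 16, averaging 87.1 ± 8.43% (SD) against 29.5 ± 11.5%. The lowest share with it was 66.7% and the highest without it 53.8%, so the values with and without it did not overlap. This split was chosen after the values were seen and has no test. It is not particular to the members. Over all domains on the 17 autosomes 91.7% of those with sequence 1 and 13.1% of those without it were slow. In intergenic domains of 6.3 to 12 kb these shares were 94.1 and 22.5%. Both gaps are wider than that of the members.

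Nearly all copies of the same sequence lay in H3K9me3 domains. Of its 2246 copies on the 17 autosomes 2237 (99.6%) lay in a domain of the table, and of the 2189 domains with it 2007 were slow (91.7%), 178 intermediate, 4 residual and 0 fast. Shared sequence 5 had 831 of 832 copies (99.9%) in domains, and 96.3% of its 819 domains were slow. Among members, sequence 5 was in 164 slow (43.4%) and 8 intermediate domains (2.74%). Shared sequences 2, 3 and 6 had the other balance: sequence 2 was in 120 intermediate (41.1%) and 100 slow members (26.5%), sequence 3 in 102 and 81, and sequence 6 in 91 and 79. Over all domains, 17, 16.8 and 14.1% of those with sequences 2, 3 and 6 were slow, near or below the 18.1% of all domains. The share of copies inside domains was 86.5, 56.6 and 86.9%.

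**Figure D3:**
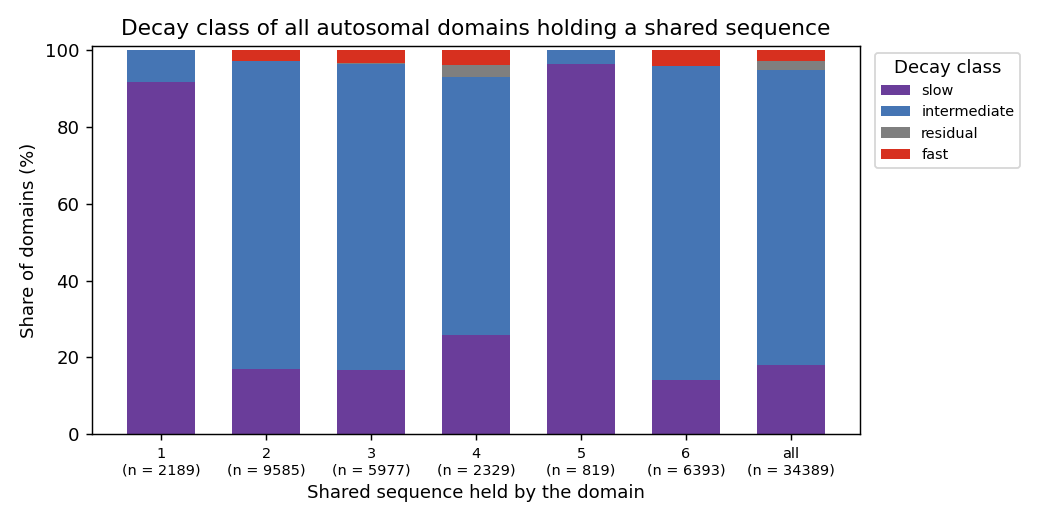
Decay class (vertical axis, % of domains) of all domains on 17 autosomes that hold shared sequences 1 to 6, and of all domains, with the number of domains under each bar. Domains with sequences 1 and 5 are 91.7 and 96.3% slow, and those with sequences 2, 3 and 6 are 14.1 to 17% slow.

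The share of intergenic domains with sequence 1 followed width much as the slow share did. It was 0.171% for widths to 3 kb, 2.81% between 3.3 and 6 kb, 25.4% between 6.3 and 9 kb, 41.4% between 9.3 and 12 kb, 44.1% between 12.3 and 15 kb and 48.7% over 15 kb. Among domains without it the slow share also rose, from 9.52% for widths to 3 kb to 32.8% between 9.3 and 12 kb, and was 28.8 and 30.8% in the widest bins. Among genic domains over 12 kb, 90.5% of those with it and 27.8% of those without it were slow. Sequence 1 was picked as the most widely shared word of domains over 12 kb, and a wider domain has more room for any word. How far its rise with width follows from this was not tested.

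**Figure D4:**
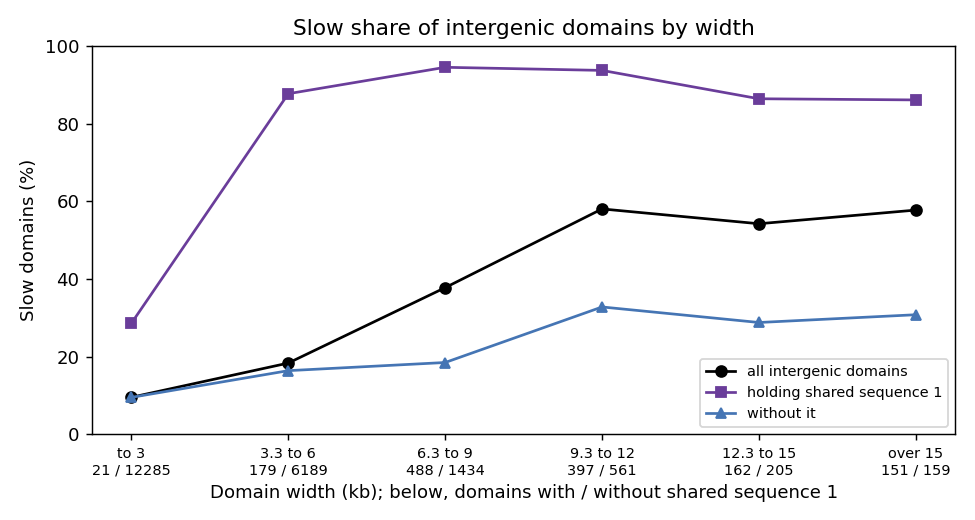
Slow share (vertical axis, % of domains) of intergenic domains by width (horizontal axis, kb) for all of them (circles), those holding shared sequence 1 (squares) and those without it (triangles), with the numbers with and without it under the axis. The squares lie above the triangles in each bin, and the first square rests on 21 domains.

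Slow members were richer in CpG and in GC than intermediate members on every chromosome compared. The observed over expected CpG ratio (1 where CpG is as frequent as its bases predict) averaged 0.319 against 0.254 over the medians of 16 chromosomes, a difference of 0.0659 ± 0.0342 (SD) in 16 of 16. GC content was 43.8 against 41.9%, a difference of 1.90 ± 0.986 points in 16 of 16. For both the adjusted p was 0.0001221 over 8 tests (two-sided exact sign-flip permutation test, smallest p 3.052e-05). The test takes chromosomes as independent, though copies of the same shared sequences lie on many of them. Over all domains on the 17 autosomes the median ratio was 0.288 in slow and 0.221 in intermediate ones, so the members repeat a difference of the whole table and are not separate support for it. Of the 322 members with a ratio of at least 0.3, 78.0% were slow, against 35.8% of the other 355. Within the 313 members holding sequence 1 the median ratio was 0.321 in slow and 0.281 in intermediate ones, and among those without it 0.309 and 0.243.

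Slow members also carried longer stop-free stretches and more high-copy sequence. The longest stretch without a stop codon in any of 6 frames, a mark of coding sequence such as an intact retroviral gag or pol gene, had a median of 2172 bp in slow, 1188 bp in intermediate and 846 bp in residual members. On 16 of 16 chromosomes the slow median was higher, by 924 ± 351 bp. Stretches of at least 1500 bp were in 296 of 378 slow (78.3%), 112 of 292 intermediate (38.4%) and 0 of 7 residual members. Stretches of at least 3000 bp were about as frequent in both classes, in 51 slow (13.5%) and 37 intermediate members (12.7%), and the longest, 4368 bp, was in an intermediate one. Words found at least 100 times on chromosomes 1 to 19, X and Y made up a median of 40.1% of slow and 19.4% of intermediate members, again with the slow median higher on 16 of 16 (difference 18.8 ± 8.14 points). Neither difference is particular to the members. Over all domains on the 17 autosomes the median stretch was 984 bp in slow and 543 bp in intermediate ones. The median share of such high-copy words there was 34.3 and 16.7%. Among members with a stretch of at least 1500 bp 72.5% were slow, against 30.5% of the others. In intergenic domains of 6.3 to 12 kb these shares were 71.9 and 29.5%. Both measures were added after the data were seen and are given without a test.

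**Figure D5:**
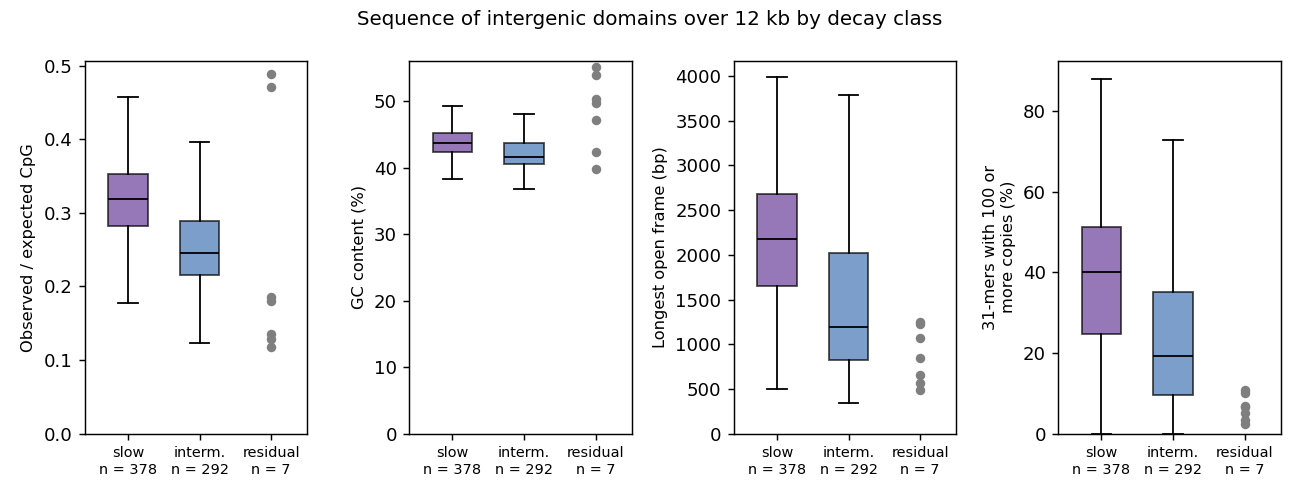
Observed over expected CpG, GC content (%), longest stop-free frame (bp) and share of 31-base words with 100 or more copies (%) in slow (n = 378) and intermediate (n = 292) members, as boxes of the median and quartiles with whiskers to the last value within 1.5 box lengths, and in the 7 residual members as points. Slow medians lie above intermediate ones in each panel, at 0.319 against 0.245 for CpG and 2172 against 1188 bp for the frame.

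Other measures did not pass between slow and intermediate members. The soft-masked share, the part of the sequence that the genome assembly marks as repeat, was 74.5 against 72.6% (adjusted exact permutation p = 0.4892), and the share of 31-base words found once in the genome was 39.1 against 37.8% (adjusted p = 0.7418, same exact test). Distance to the nearest gene differed by 0.03 ± 0.27 on the log10 scale (adjusted exact permutation p = 0.7418). Distance to the next H3K9me3 domain was larger for slow members by 0.15 ± 0.24 on the log10 scale, on 11 of 16 chromosomes (p = 0.02203, adjusted exact permutation p = 0.05876), with medians of 11.7 and 8.1 kb. It passed under 4 of the alternatives and without chromosome 2, 9, 10 or 16. Distance from the first domain of the chromosome differed by 0.942 ± 26.9 Mb (adjusted exact permutation p = 0.8863).

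Compared with genic domains over 12 kb, long intergenic domains held more repeat sequence. Their soft-masked share was 73.3 against 63.3%, a difference of 9.99 ± 5.99 points that was positive on 16 of 17 chromosomes (exact sign-flip permutation test, adjusted p = 0.0004883 over 8 tests). Gene overlap chose both sets, and genic domains hold gene sequence by that rule. How far the difference follows from the choice was not tested. Their GC content, CpG ratio and share of unique words did not pass against genic domains (adjusted exact permutation p = 0.6079, 0.2224 and 0.4157). Nor did these or the soft-masked share pass against intergenic domains of 6.3 to 12 kb (adjusted exact permutation p from 0.4157 to 0.8204).

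Matches to primer binding sites were also counted, since some retrovirus families are known by the tRNA they use. No member was assigned to a family. The 18-base complements of the 3' ends of 403 annotated tRNA genes, CCA included, gave 124 distinct sites, searched exactly and on both strands. Those found in most members are printed with the leading TGG, which pairs with the CCA end, in capitals.
Phe or Ser site: TGGtgccgaaacccggga
Phe site: TGGtgctgaaacccggga
Pro site: TGGgggctcgtccgggat
Ile site: TGGtggcccgtacgggga
Gln site: TGGaggtcccaccgagat
Gly site: TGGtgcattggccgggaa
Leu site: TGGtaccaggagtggggt

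A tRNA-Phe site is known from intracisternal A particles, a young and active mouse family, a tRNA-Pro site from murine leukaemia virus relatives, and a tRNA-Leu site from MERVL, a family read in early embryos. The Phe or Ser site had 897 copies, 98.9% of them in domains, and was in 83 members, of which 67 were slow and 16 intermediate. The second Phe site was in 25 members, 20 of them slow, and the Pro site in 26, 20 of them slow. The Gly site was in 13 members, 11 of them slow. The Ile and Gln sites lay the other way: 8 of 13 members with the Ile site and 10 of 11 with the Gln site were intermediate. Over all domains with each site, the slow share was 57.4% for Phe or Ser, 53.2% for the second Phe and 68.6% for Pro. It was 37.4% for Gly, 15.1% for Ile and 9.84% for Gln. Members with the Gln site, 9.09% slow, were thus near the share of all domains with it. The Leu site had 494 copies on the 17 autosomes, 14.2% of them in domains, and was in 6 members.

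Counted over all sites, 189 members (27.9%) held a match, at 20.0 per Mb against 1.51 per Mb over the 17 autosomes and 18 in all domains. Intergenic domains of 6.3 to 12 kb had 24.9 per Mb, more than the long ones, and genic domains over 12 kb had 17. Slow members had 22.6 per Mb and intermediate ones 17. Phe sites stood at 14.2 per Mb in slow and 5.6 in intermediate members, Pro sites at 3.88 and 1.51, Ile sites at 0.808 and 3.23, and Gln sites at 0.162 and 2.37. These counts are descriptions, and a match is not proof of a working site.

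The longest slow members lay near unrelated genes. The widest of all, chr7:31210801-31254600 (43.8 kb), was 1.29 kb from the pseudogene Scgb1b1-ps and 35.9 kb from Scgb2b2, a secretoglobin gene. It held shared sequences 2, 3 and 6 but not 1, with a CpG ratio of 0.229. The next were 39.9 kb at 5.79 kb from Stk38l, a kinase gene (chr6:146679301-146719200), 33.9 kb at 130 kb from Grm8, a glutamate receptor gene (chr6:27111001-27144900), 33.3 kb at 6.48 kb from Tlr1, a receptor for bacterial lipoproteins (chr5:64884901-64918200), and 33.0 kb at 41.2 kb from Cdc42bpa, another kinase gene (chr1:179886301-179919300). These 4 held shared sequence 1. The longest stop-free frames were 3570 bp in the Grm8 and 3081 bp in the Tlr1 domain.

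Of the 5 longest intermediate members, 2 held shared sequence 1. These were chr3:90975001-91008300 (33.3 kb), beside the pseudogene Gm9023, and chr10:38587801-38614800 (27.0 kb), 206 kb from Rfpl4b. The others were 30 kb at 7.01 kb from Cdip1 (chr16:4797301-4827300), 29.7 kb on chromosome 12 at 980 kb from Gm10330 (chr12:22769701-22799400), and 28.2 kb at 6.52 kb from the olfactory receptor gene Olfr914 (chr9:38617501-38645700). CpG ratios of these 5 ran from 0.196 to 0.244, against 0.229 to 0.333 in the 5 longest slow members.

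The 7 residual members fell into unlike kinds of sequence. Chromosome 6 held 2 tandem arrays between Ezh2, the H3K27 methyltransferase gene, and Pdia4. The array at chr6:47736901-47778300 (41.4 kb) had 4.37% unique words, a CpG ratio of 0.471, 91.5% of words repeated within the domain and a commonest spacing of 4347 bp. The one at chr6:47651701-47686800 (35.1 kb) had 0.57% unique words, a ratio of 0.488, 99.4% repeated words and a spacing of 4321 bp, and RefSeq annotates Rn4.5s, a small RNA gene, in it. By contrast 94.4% of words were unique in a 17.7 kb domain 25.6 kb from the homeobox gene Nkx1-1 on chromosome 5, and 90.4% in one 0.37 kb from Peg12, an imprinted gene, on chromosome 7. The remaining residual members lay 315 kb from Tmco5 (32.4 kb wide, chromosome 2), 26.3 kb from Cyp3a41a (15.6 kb, chromosome 5) and 0.691 kb from Vmn1r238, a pheromone receptor gene (12.9 kb, chromosome 18). Of the 14 neighbouring domains of residual members, 4 were residual, against 18 of 753 neighbours of slow members (2.39%). Of these 4, 3 belong to the arrays on chromosome 6, which are each other's neighbours. The sources used here do not rank the residual class among the others.

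Uniqueness of sequence set some named members apart. Shares of 96.6 and 95.5% unique words were found in intermediate domains 112 kb from Nkx6-1, a factor gene of beta cells and motor neurons, and 270 kb from Tmem182. Their soft-masked shares were 17 and 22.8%, against a median of 74.2% over the 677. The lowest shares, 0.0%, were in an intermediate domain at chr16:3025201-3047700 and in slow ones at chr7:32664301-32679300 and chr7:32891401-32905800, both among secretoglobin genes. Of the 178 members with over 50% unique words 48.9% were slow, against 58.3% of the others.

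Long intergenic domains lay a median of 14.4 kb from the nearest gene of any type and 52.6 kb from the nearest protein-coding gene. A gene was within 10 kb of 272 members (40.2%) and beyond 100 kb of 44 (6.5%), of which 72.7% were slow. All members but these 44 were 54.7% slow. Of intergenic domains of 6.3 to 12 kb, 10.4% lay beyond 100 kb. These were 52.8% slow, against 43.5% of the others in that set. The members nearest to a gene were an intermediate domain 0.001 kb from Tyms, the thymidylate synthase gene, a slow one 0.01 kb from Gm30162 and an intermediate one 0.023 kb from Gm21962. These distances are to GENCODE genes, and RefSeq places Tyms itself on the first domain and Gm41474 on the slow one. The farthest were an intermediate domain on chromosome 6 at 437 kb and slow ones at 343 kb on chromosome 6 and 261 kb on chromosome 1. RefSeq places a gene on 98 of the 677 (14.5%), 51 of them with a long non-coding RNA and 20 with a protein-coding gene. The first 10 Mb of the domain-bearing part of each chromosome held 152 members (22.5%, of which 49.3% slow), against 14.8% of intergenic domains of 6.3 to 12 kb. Neighbouring domains of slow members were 20.3% slow and 74.1% intermediate, and those of intermediate members 17.5 and 77.9%, close to the shares over all domains.

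Some members lay in groups, several of them at gene clusters. Joined across gaps of up to 500 kb, 333 members stood alone, 218 of them slow (65.5%). The 13 groups of 5 or more held 98 members, 37 of them slow (37.8%). Groups were defined after the data were seen and were not tested. The major urinary protein cluster on chromosome 4 (chr4:60026101-62075100), which encodes secreted pheromone carriers, held 15 members, 4 slow and 11 intermediate, with a median of 8.67% unique words. A stretch of chromosome 12 (chr12:18294301-20960100) near 5730507C01Rik and Asap2 held 15, of which 12 were intermediate. The secretoglobin stretch of chromosome 7 (chr7:31210801-33564600) held 10, split evenly. Of all domains in the urinary protein, chromosome 12 and secretoglobin stretches, 33.8, 21.3 and 22.5% were slow. All 5 members at Tdpoz3 on chromosome 3, and all 5 near the Zscan4 genes, markers of the 2-cell-like state, on chromosome 7, were intermediate. Slow domains were also few there as a whole, at 4.76% of all 21 domains in the Tdpoz3 stretch and 5.88% of all 34 near Zscan4. In 5 more groups most members were slow, with 5 of 8 members near Wac and Mpp7 on chromosome 18, 4 of 7 near Olfr161 on chromosome 16, 4 of 6 near Impad1 on chromosome 4, 4 of 6 near A26c2 and Peg12 on chromosome 7, and 3 of 5 among Cyp2a and Cyp2b genes on chromosome 7. Of all domains in those stretches, 24.6, 31.2, 29.6, 56.2 and 17.9% were slow, in the same order.

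By the family of the nearest protein-coding gene, olfactory receptors were the largest family named for a function, with 31 members (4.58%, against 3.1% of all intergenic domains), 17 of them slow. Predicted Gm genes had 43 (6.35 against 5.8%) and Rik clones 33 (4.87 against 3.05%). Zinc finger genes had 24 (3.55 against 1.96%), 10 of them slow. Vomeronasal receptors of type 1 had 22 (3.25 against 1.29%) and of type 2 had 16 (2.36 against 1.3%). Major urinary proteins had 15 (2.22 against 0.283%), 4 of them slow (26.7%, against 31.7% of all intergenic domains of that family). Protocadherins had 5 (0.739 against 1.42%), cadherins 12 (1.77 against 1.37%), of which 9 slow, and potassium channels 4 (0.591 against 1.16%), all slow. Over all intergenic domains the slow share was 16.1% at olfactory receptors, 20.2% at zinc finger genes, 15.7% at cadherins and 14.3% at potassium channels. All 677 members together were 55.8% slow. Defensins, keratins and MHC genes had 0, and are also rare over all intergenic domains (0.036, 0.0765 and 0.072%). An unprocessed pseudogene was the nearest gene of 72 members (10.6 against 4.87%), of which 45.8% were slow, and a lincRNA that of 63 (9.31 against 15.7%), of which 65.1% were slow. These shares describe the members and were not tested.

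Some protein-coding genes were the nearest one for 3 or more members, and the first 15 by number are given. 5730507C01Rik was nearest to 7 members, 6 of them intermediate, and the olfactory receptor gene Olfr161 to 6, with 3 of each class. Cdh9, a cadherin gene, and A26c2 each had 4 members, all slow. Impad1 had 5, of which 4 slow, and Hnf4g, a nuclear receptor gene, 4, of which 3 slow. Pcmtd1 and Gm21863 had 5 each, of which 4 intermediate, 9030624G23Rik had 4, all intermediate, and Ywhaq, a 14-3-3 gene, 4, of which 3 intermediate. Asap2, Cdh12 and Gm10330 had 3 each, with 1, 1 and 0 slow, and Dsel and Gdi2 had 3 each, with 2 slow.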

How the data were processed

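Per the submitters' processing notes, the authors used Bowtie2 2.3.4.1, SAMtools 1.1, deepTools and bedtools with the builds mm10, dm6, mm9 and GRCm38. Per the labels' protocols, 20 µg of chromatin was mixed with 1.5 µg of Drosophila chromatin. The sources used here do not give the domain calling, spike-in scaling, placement of repeated reads or class limits. The deposited table gives positions on mm10 and a class in words; all 34389 domains used lay on a 300 bp grid and 0 ran past a chromosome end.

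The members, lists and tests were chosen with earlier results of these data known. Overlap meant 1 bp. GC, CpG ratio, stop-free frames and copies of 31-base words (read every 100 bp) came from GRCm38.p6. Measures were compared as per-chromosome shares or medians, for chromosomes with at least 5 domains on both sides, by exact sign-flip permutation over chromosomes, with Benjamini-Hochberg adjustment in families of 4, 8 and 8 tests and a threshold of 0.05. These p-values measure spread between chromosomes, not cultures, and chromosomes that hold copies of the same sequence are not fully independent units. The test was checked on simulated data in which domains were drawn independently, with the same number on every chromosome. That check does not cover sequence shared between chromosomes or unequal numbers of domains. Comparisons over time were not run, since the table has no value per sample.

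Named domains are the 5 longest per class, the 3 nearest to and farthest from genes, the 3 with most and with least unique words, and those at the limit; named genes are the nearest of these and protein-coding genes nearest to at least 3 members (15 at most). 1 domain named by this rule is not reported here. Other names, such as gene clusters, the primer sites and the remaining residual members, were chosen after their values were seen. Alternatives were other widths, gene sets, means, a distance of 5 kb from genes, joined neighbours, unique sequence, covered length, at least 3 or 10 domains, and each chromosome left out. Scripts ran in Python 3.11.15 with matplotlib 3.10.9, scipy 1.17.1, numba 0.67.0, pandas 2.3.3 and numpy 2.4.6.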

Additional observations from a re-analysis of the deposited data

How the results depend on the processing

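No paired analysis was possible because the table holds no value per sample. Of 20 tested results, 5 passed. Over 120 alternatives, 96 kept direction and side of the threshold, 2 lost the call, 11 gained one and 11 changed direction; the cause was not tested. Of 340 values with a chromosome left out, 325 kept both, 0 lost a call, 4 gained one and 11 changed direction. Some of the 120 alternatives only repeat the main values. For the class shares, at least 3 or at least 10 domains kept all 17 chromosomes and changed nothing. At least 3 domains also changed nothing for the sequence measures against the other sets. That setting is thus no added support for the genic soft-masked call. The CpG and GC calls between classes and the genic soft-masked call held under the 5 other settings run for them and without each chromosome; joined neighbours, the setting that ended the other calls, was not run for them.

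Joining same-class neighbours ended the calls against intergenic domains of 6.3 to 12 kb (slow 3.54, intermediate -3.59 points). Against genic domains the slow difference was 2.64 points above 15 kb, 1.84 above 9 kb, 1.096 with at least 50% unique words, 1.23 with no RefSeq gene either (chosen after seeing the data), -8.78 with protein-coding genes only, and -1.80 to 0.352 leaving out a chromosome (above 0 without chromosome 5, 9 or 18). The intermediate difference was -0.105 above 15 kb and 14.1 with protein-coding genes only.

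Between slow and intermediate members, unique words differed by -2.49 points with means, -0.149 with no RefSeq gene and -0.304 to 2.31 leaving out a chromosome (below 0 without chromosome 4). The log10 distance to the next domain passed with means (0.142), at least 3 domains (0.164), protein-coding genes only (0.119), no RefSeq gene (0.178) and without chromosome 2, 9, 10 or 16 (range 0.122 to 0.185). Log2 width, which the rule used, differed by -0.0558 above 15 kb. Distance from the first domain differed by -2.01 Mb with protein-coding genes only and -3.24 to 4.21 Mb leaving out a chromosome.

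Against genic domains, means gave passing differences of 0.0137 in CpG ratio and -3.49 points in unique words, and protein-coding genes only gave -0.755 points in GC. Against intergenic domains of 6.3 to 12 kb, unique words differed by -1.04 points with means, GC by -0.0460 points with protein-coding genes only and -0.0196 to 0.111 leaving out a chromosome, and above 15 kb the CpG ratio (-0.0162) and soft-masked share (-5.57 points) passed. Depth per domain is unknown.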
